A study of Mus musculus with 12 samples.

Results

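Translesion synthesis lets a cell copy past damaged bases. When a replicative polymerase stalls, the ubiquitin ligase Rad18 attaches ubiquitin to the sliding clamp PCNA, and polymerases with an open active site are recruited to insert a base opposite the lesion. The deubiquitinase Usp1 removes the mark again. In B cells these enzymes have a further role, since polymerase eta and Rev1 contribute to the mutations made during antibody diversification. The 8 genes described here, Polh, Polk, Poli, Polq, Rev1, Rev3l, Rad18 and Usp1, were named as members of this group and not chosen by their measured values. All 8 were found by gene name, 1 row each, among the 29486 genes of the deposited table, and all 8 were among the 15616 genes that reached 10 scaled counts in 4 or more libraries.

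Polyadenylated RNA was sequenced from splenic B cells of C57BL/6Babr mice, isolated with a B cell kit and activated in culture. The 12 libraries fall into 3 conditions of 4 biological replicates. Cells of the LPS condition received LPS (10 μg/ml, 48 h). Cells of the LE condition received the same LPS and then etoposide, a topoisomerase II inhibitor that causes DNA double-strand breaks (20 μM, 4 h). Cells of the LEKU condition received LPS for 47 h, then KU55933, an inhibitor of the DNA damage kinase ATM (10 μM), for 1 h before the same etoposide. All 3 conditions therefore share strain, cell type and LPS. No cells received KU55933 without etoposide, each condition carries sequencing indexes of its own, and the labels do not say whether the LPS cells stayed in culture for the further 4 h, so these differences and the treatments cannot be told apart.

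The deposited values hold 1 number per condition and gene. Within a condition, dividing one library's column by another's gave a constant over all 29486 genes (to within 1.4e-14 in log2), so that the 4 columns are 1 fitted mean multiplied by a factor for each library. Spread between replicates could therefore not be measured and no test between conditions was possible. Whether the deposited columns of 2 conditions overlap follows from the 2 fitted means and the library factors, and carries no information from replicates. Differences are given as the ratio of condition values, and a difference of 1.5-fold or more is called past the threshold. The columns summed to between 2.04e+07 and 3.06e+07. If the fitted values are read as reads, counting error alone gives the log2 ratios of the 8 genes standard errors of 0.015 to 0.043, which leave out all biological and technical variation. In these cultures, the 6 listed B cell markers summed to 110904 scaled counts with LPS, 72372 with LE and 80177 with LEKU, and all 5 T cell markers were under 10 in every condition. The 6 macrophage markers summed to 403, 479 and 437 scaled counts in the same order. With LE 3 of them were past 1.5-fold higher and 1 lower, when 24.1% and 13.5% of all genes were. None of these markers was at 0. Red cell markers summed to 209, 149 and 109, neutrophil markers to 2.22, 15.4 and 4.58, and plasma cell markers to 13538, 14431 and 10123. The neutrophil sum is mainly Mpo, at 1.22, 14.2 and 3.39, as 3 of the 4 markers were under 10 in every condition. The plasma cell sum joins opposite moves, as Sdc1 went from 133 to 1998 and 644 while Xbp1 went from 7344 to 5437 and 5505. For LEKU against LE, 2 of the 4 plasma cell markers were past the threshold lower, when 12.1% of all genes were. The part of other cells in the results was not tested. In RNA from whole cultures, fewer cells of a type and less RNA per cell cannot be told apart.

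Etoposide was followed by a rise in p53 target RNA, which checks the treatment. All 5 listed targets were more than 2-fold higher with LE than with LPS, when 15.3% of all genes were. With LEKU all 5 were still past 1.5-fold above LPS, when 22.7% of all genes were. For LEKU against LE, 3 of the 5 were past 1.5-fold lower, 0 higher and 2 under the threshold, when 12.1% of all genes were lower. From LPS to LE, Cdkn1a, the cell cycle inhibitor p21, went from 397 to 13749 scaled counts and Ccng1 from 5484 to 52197. Sesn2 went from 1182 to 8673 and Mdm2, the ligase that limits p53, from 2533 to 17037.

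Promoter sequences are shown for Polk, Rev1 and Polh because the first 2 were higher with etoposide while Polh was lower, though by less than 1.5-fold. RefSeq (GRCm38.p6) gave promoters for 5 of the 8 genes. The 250 bases before each annotated start were searched on both strands for the CCAAT box, for GGGCGG as in GC boxes, for TTTGAA and TTTCCCGC of cell cycle promoters, and for the p53 half-site consensus. From each window the longest stretch without an annotated untranslated region is printed, 5′ to 3′ on the minus strand, which is the strand of all 3 genes, with matches in capitals. Polk has 2 annotated starts, and the stretches are chr13:96542645-96542734 for the upstream one and chr13:96519188-96519437 for the downstream one. Those of Rev1 and Polh are chr1:38129802-38129916 and chr17:46202646-46202781. The window of Polk's upstream start also holds exons of Col4a3bp, and that of Polh exons of Xpo5, both on the opposite strand.
Polk, upstream start: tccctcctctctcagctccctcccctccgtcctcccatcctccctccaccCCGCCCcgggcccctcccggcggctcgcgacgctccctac
Polk, downstream start: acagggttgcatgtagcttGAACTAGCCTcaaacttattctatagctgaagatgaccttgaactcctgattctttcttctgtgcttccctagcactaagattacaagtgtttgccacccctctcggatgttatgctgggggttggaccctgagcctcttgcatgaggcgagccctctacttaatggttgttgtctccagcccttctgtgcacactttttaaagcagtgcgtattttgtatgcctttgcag
Rev1: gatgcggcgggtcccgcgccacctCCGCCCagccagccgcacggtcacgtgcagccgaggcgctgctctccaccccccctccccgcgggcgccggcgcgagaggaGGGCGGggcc
Polh: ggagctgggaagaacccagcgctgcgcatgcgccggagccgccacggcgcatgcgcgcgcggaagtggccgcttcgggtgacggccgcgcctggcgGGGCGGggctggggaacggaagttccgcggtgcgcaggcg

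The downstream window of Polk held 1 match to the p53 half-site, 231 bases before that start, which 7.13% of the 32851 promoters of the same length hold. This window lies inside the annotated Polk gene and holds no annotated exon. Whether the downstream start is used in these cells was not tested. The windows of Rev1 and Polh and the upstream window of Polk held 0 matches to the p53 half-site. GGGCGG was found 2 times in Rev1, 1 time in the upstream window of Polk and 1 time in Polh, and 32.7% of all promoters hold it. GC content was 83.6% in Rev1, 73.2% in Polh, 68.0% in the upstream Polk window and 46.8% in the downstream one. The CCAAT box, which 33.8% of all promoters hold, was in none of these 4 windows. Neither was TTTGAA, held by 16.0%, or TTTCCCGC, held by 0.895%. Of the windows searched but not printed, that of Polq held 1 match to TTTGAA and those of Rad18 held 0 matches to any motif. These letters are a description of the windows and say nothing of binding.

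With LPS alone, the levels of the 8 genes per length differed mainly in that Usp1 stood far above the others. Counts were divided by the exonic length of each gene (GENCODE M21) to compare genes. Usp1, the deubiquitinase of PCNA and of the Fanconi protein Fancd2, had 1486 scaled counts per exonic kilobase, 6.17-fold above Rad18, the ligase, at 241. Below Rad18 came Polh with 229, Polq with 203, Rev3l with 199, Rev1 with 167, Poli with 148 and Polk with 127. Neighbours from Rad18 to Polk in this order differed by 1.02-fold to 1.19-fold, and with no replicate values their order could not be tested. Among all genes kept, Usp1 lay at percentile 94.1 of the level per length and Polk at 50.6.

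With etoposide, Polk was the member that changed most, and Rev1 and Rev3l rose less, while Usp1 and Polh were lower. Of the 8 genes, 3 were past 1.5-fold higher with LE than with LPS, when 24.1% of all genes were, and 0 were past 1.5-fold lower, when 13.5% were. In either direction 37.6% of all genes passed, so that 3 of 8 is close to the share of all genes and is no property of the group. The median log2 ratio was −0.18 over the 8 genes and 0.068 over all 15616 genes. The ratio was below 0 for 5 of the 8 members, of which Poli and Polq changed sign with the columns as deposited, and for 45.2% of all genes. Another scaling factor adds the same amount to every log2 ratio, from −0.17 to 0.25 over the 4 tried. The split of all genes, 3761 higher and 2111 lower here, was 5184 and 1151 with the columns as deposited. With quantile normalization, which moves each gene by an amount of its own, it was 2658 and 3325.

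**Figure D1:**
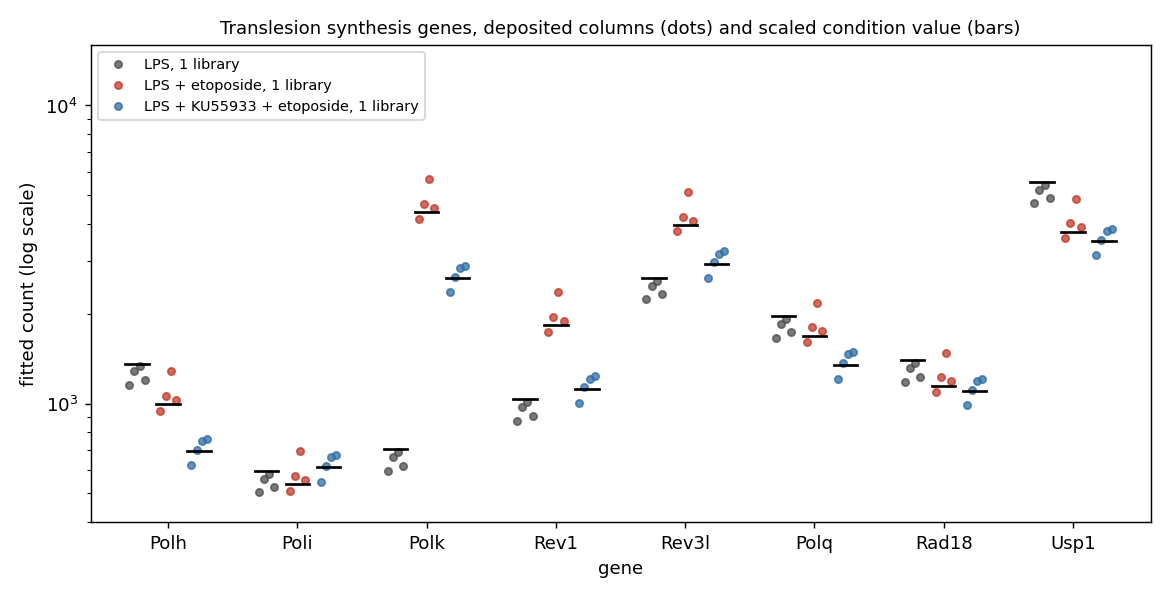
Fitted counts on a log axis for the 8 genes in the 12 libraries. Dots are the deposited columns, which differ within a condition only by the library factor, and black bars are the condition values after division by that factor; no error bar can be drawn. The Polk columns lie between 596 and 688 with LPS, between 4162 and 5650 with etoposide and between 2364 and 2903 with KU55933 and etoposide.

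Polk (ENSMUSG00000021668, chromosome 13, 96480690 to 96542579, minus strand, GRCm38) encodes polymerase kappa, a Y family enzyme that extends from mismatched ends and bypasses bulky guanine adducts. Its deposited columns were 596, 661, 688 and 620 with LPS, 4162, 4665, 5650 and 4522 with LE, and 2364, 2666, 2856 and 2903 with LEKU. The LE columns were highest and the LPS columns lowest, which follows from the fitted means and library factors and carries no information from replicates. The order within a condition is that of the library factors. After scaling these were 703, 4379 and 2639 counts. The log2 ratio was 2.64 for LE against LPS, a 6.22-fold rise. It ranked 525 from the top of 15616 genes (percentile 96.6) and was the 1 member past 2-fold, where 20.2% of all genes lay (15.3% higher, 4.87% lower). By level Polk moved from percentile 59.0 of all genes with LPS to 93.2 with LE. With KU55933 it was lower than with etoposide alone, by 0.73 on the log2 scale (1.66-fold lower), and still 3.75-fold above LPS, so that 72.3% of its log2 rise was kept (71.7% to 74.9% over the other scalings).

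Rev1 (ENSMUSG00000026082, chromosome 1, 38052786 to 38129801, minus strand) encodes a deoxycytidyl transferase of the Y family that also serves as the scaffold on which the other translesion polymerases assemble. Its deposited columns were 875, 971, 1010 and 910 with LPS, 1741, 1951, 2363 and 1892 with LE, and 1005, 1133, 1214 and 1234 with LEKU. The LE columns lay above all others, while the LEKU columns overlapped those with LPS, as set by the fitted means and library factors. Scaled, the levels were 1032, 1832 and 1121 counts, a 1.77-fold rise with etoposide (log2 ratio 0.83) and a 1.63-fold lower level with KU55933 under etoposide (−0.71). The share of the log2 rise that remained with the inhibitor was 14.4%, but it depended on the scaling, from −1.52% with the median ratio over all genes above 0 to 26.4% with the columns as deposited. Of the exonic bases of Rev1, 26.6% overlap exons of Eif5b on the opposite strand, and the strand setting of the counting is not given in the sources used here. Eif5b, a translation initiation factor, had 4849, 4360 and 3311 scaled counts. Its log2 ratios were −0.15 for LE against LPS and −0.40 for LEKU against LE, both under the threshold. The part of this overlap in the Rev1 values was not tested.

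Rev3l (ENSMUSG00000019841, chromosome 10, 39732118 to 39875211, plus strand) encodes the catalytic subunit of polymerase zeta, a B family enzyme that extends from bases inserted opposite a lesion. Its deposited columns were 2240, 2485, 2585 and 2330 with LPS, 3780, 4237, 5131 and 4107 with LE, and 2638, 2975, 3187 and 3239 with LEKU. The lowest LEKU column lay just above the highest LPS column. That the 3 ranges did not overlap is set by the fitted means and library factors. Scaled levels were 2643, 3977 and 2944 counts. The rise with etoposide was 1.5-fold (log2 ratio 0.59), just inside the threshold, and it fell outside with TMM factors (0.45) and with the median ratio over all genes above 0 (0.42). With KU55933 under etoposide the log2 ratio was −0.43. The share of the rise that was kept was 26.4%, and ran over the scalings from 6.35% with the median ratio over all genes above 0 to 44.7% with quantile normalization.

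The partners of Rev3l in polymerase zeta were not past the threshold upward. Mad2l2, the Rev7 subunit, went from 579 to 645 scaled counts (log2 ratio 0.15). Pold3 and Pold2, subunits shared with the replicative polymerase delta, went from 2523 to 1589 (−0.67) and from 1764 to 1284 (−0.46). Pold3 was thus past the threshold downward. With KU55933 under etoposide these 3 subunits had log2 ratios of 0.031, 0.047 and −0.12, against −0.43 for Rev3l.

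**Figure D2:**
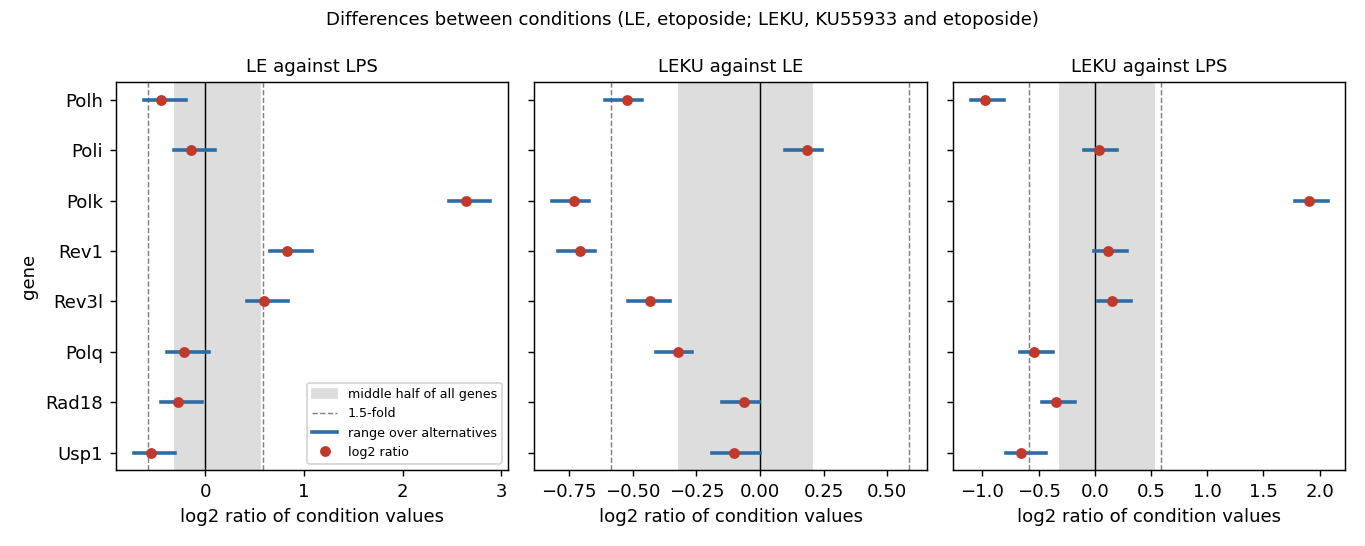
Log2 ratios of condition values for the 8 genes in the 3 comparisons (red dots), with the range over all alternative scalings, filters, pseudocounts and left-out libraries (blue lines), the middle 50% of all genes (grey band) and 1.5-fold (dashed lines). Polk lies at 2.64 for etoposide against LPS, while Polk and Rev1 lie past the lower dashed line, at −0.73 and −0.71, for KU55933 and etoposide against etoposide.

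Polh (ENSMUSG00000023953, chromosome 17, 46171355 to 46202645, minus strand) encodes polymerase eta, the Y family enzyme that copies ultraviolet dimers accurately and makes mutations at A and T bases in antibody genes. Its deposited columns were 1155, 1282, 1333 and 1201 with LPS, 947, 1062, 1286 and 1029 with LE, and 622, 701, 751 and 763 with LEKU. The LEKU columns were lowest, and the LPS and LE columns overlapped as their library factors differ. Scaled levels were 1363, 996 and 694 counts. The log2 ratio was −0.45 for LE against LPS and −0.52 for LEKU against LE, both under the threshold. It was −0.97 for LEKU against LPS, 1.96-fold lower and 846 from the bottom of all genes. The first 2 ratios were thus both below 0 for Polh, as they were for Polq, Rad18 and Usp1. For Polk, Rev1 and Rev3l the first was above 0 and the second below it. These 2 ratios share the LE value.

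Poli (ENSMUSG00000038425, chromosome 18, 70508680 to 70530620, minus strand), which encodes polymerase iota, an inserter of low fidelity, was under the threshold in all 3 comparisons. Its scaled levels were 595 with LPS, 537 with LE and 611 with LEKU, and the deposited columns of the 3 conditions, from 505 to 693, overlapped. Its log2 ratios were −0.15, 0.18 and 0.038 for LE against LPS, LEKU against LE and LEKU against LPS. The sign of the first and the last of these depends on the scaling. It was the only member with a higher level in LEKU than in LE.

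The balance among the 4 Y family genes shifted toward Polk. Per exonic kilobase they summed to 670 scaled counts with LPS, 1386 with LE and 925 with LEKU. Polk made up 18.9% of this sum with LPS, 56.9% with LE and 51.4% with LEKU, and Polh 34.2%, 12.1% and 12.6%. Polk per length was 0.553 times Polh with LPS, 4.71 times with LE and 4.08 times with LEKU. These shares and ratios are taken within a condition, so that another factor for each library leaves them unchanged. The sums depend on the scaling, and quantile normalization moves each gene by an amount of its own.

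**Figure D3:**
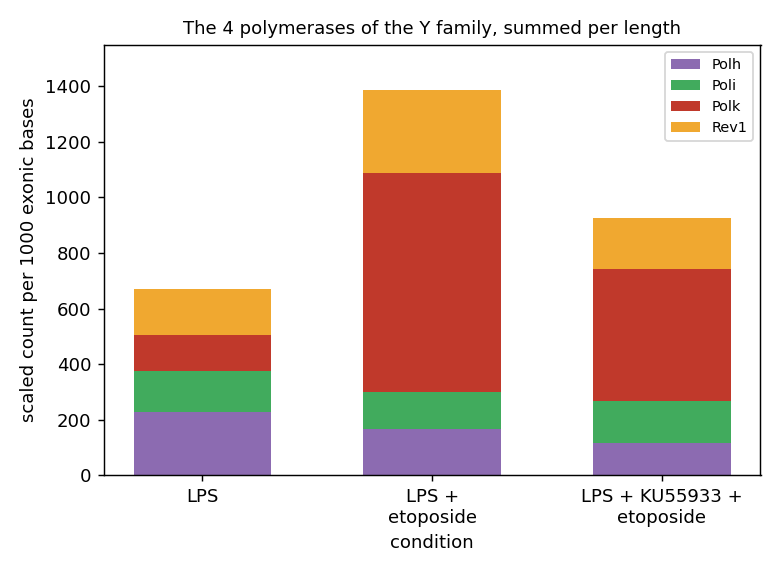
Scaled counts per exonic kilobase of Polh, Poli, Polk and Rev1, stacked, in the 3 conditions, with 1 fitted value for each gene and condition and hence no error bars. The sum goes from 670 with LPS to 1386 with etoposide and 925 with KU55933 and etoposide, and the share of Polk from 18.9% to 56.9% and 51.4%.

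Polq (ENSMUSG00000034206, chromosome 16, 37011786 to 37095417, plus strand) encodes polymerase theta, an A family enzyme that joins broken ends at short stretches of microhomology. Its deposited columns ran from 1666 to 1923 with LPS, from 1607 to 2182 with LE and from 1211 to 1487 with LEKU. LPS and LE overlapped and LEKU lay below both, as set by the fitted means and library factors. Scaled levels were 1965, 1691 and 1351 counts. The log2 ratios were −0.22 for LE against LPS, −0.32 for LEKU against LE and −0.54 for LEKU against LPS. None was past the threshold, but the last passed it with TMM factors (−0.64). Among 6 genes that act with Polq in end joining or resection, 0 were past 1.5-fold higher with LE and 2 lower, Parp1, which senses breaks (12039 to 5884 scaled counts, log2 ratio −1.03), and Nbn, of the complex that binds broken ends (−0.78). With LE, 37.6% of all genes were past the threshold (24.1% higher, 13.5% lower), so that 2 of 6 is near that share. With KU55933 under etoposide 0 of the 6 passed, when 18.9% of all genes did.

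Rad18 (ENSMUSG00000030254, chromosome 6, 112619850 to 112696686, minus strand) and Usp1 (ENSMUSG00000028560, chromosome 4, 98923810 to 98935543, plus strand) write and remove the ubiquitin on PCNA. The deposited Rad18 columns ran from 1183 to 1365 with LPS, from 1093 to 1484 with LE and from 986 to 1211 with LEKU, and all 3 ranges overlapped. Its scaled levels were 1396, 1150 and 1101 counts, with log2 ratios of −0.28 for LE against LPS and −0.063 for LEKU against LE. The Usp1 columns ran from 4702 to 5426 with LPS, from 3588 to 4871 with LE and from 3149 to 3866 with LEKU. LPS and LE overlapped, as did LE and LEKU. Scaled, Usp1 went from 5547 to 3775 and 3514 counts. The log2 ratio of −0.55 for LE against LPS lay just outside the threshold, and that of −0.66 for LEKU against LPS was past it. With TMM factors the first was past it too (−0.69), and with column totals the second was not (−0.55). Rad18 per length was 0.162 times Usp1 with LPS, 0.196 times with LE and 0.202 times with LEKU.

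When KU55933 preceded etoposide, Polk and Rev1 were lower than with etoposide alone. These 2 members were past 1.5-fold lower, when 12.1% of all genes were, and 0 members were past 1.5-fold higher, when 6.85% were. In either direction 18.9% of all genes passed, and the split of 1069 higher and 1884 lower ran over the scalings from 810 and 2361 with the columns as deposited to 1538 and 1558 with quantile normalization. At 2-fold, 0 members passed and 6.42% of all genes did (1.69% higher, 4.73% lower). The ratio was below 0 for 7 members, including Rad18 (−0.063) and Usp1 (−0.10), and for 55.9% of all genes. The median log2 ratio was −0.38 over the 8 genes and −0.052 over all genes. Against LPS alone, LEKU cells had 1 member past 1.5-fold higher (Polk, with 22.7% of all genes) and 2 past it lower (Polh and Usp1, with 13.3%), out of 36.0% of all genes in either direction. At 2-fold, Polk alone passed, with 17.3% of all genes (12.3% higher, 5.03% lower). The split of all genes was 3544 higher and 2083 lower, against 4627 and 1409 with the columns as deposited and 2444 and 2668 with quantile normalization. The ratio of Rev1 (0.12) was −0.0100 with 1 scaling, the median ratio over all genes above 0. The 3 comparisons share their conditions, so that they are not independent of each other.

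**Figure D4:**
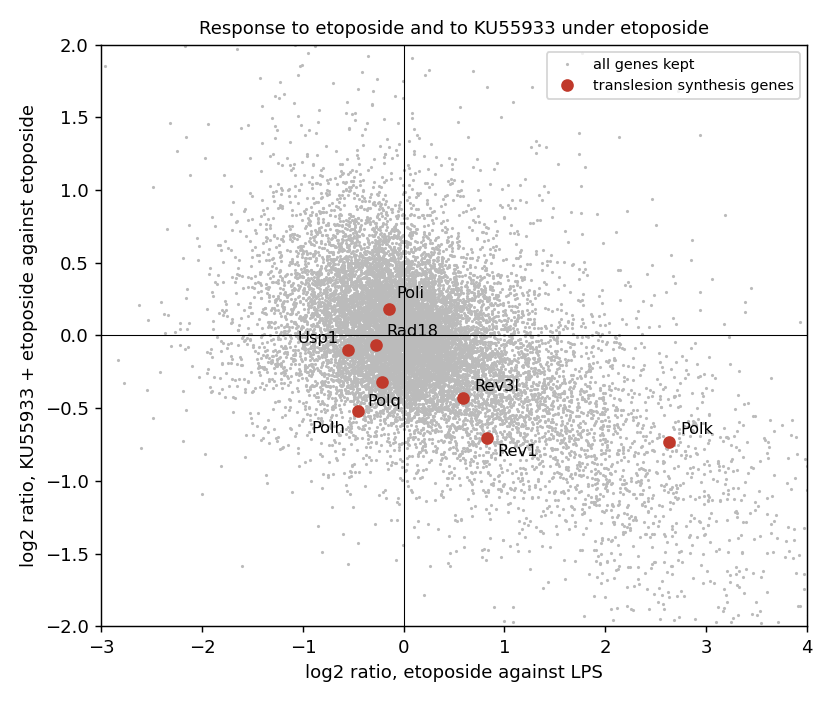
Each grey point is 1 of the 15616 genes kept, with the log2 ratio of etoposide against LPS on the x axis and that of KU55933 and etoposide against etoposide on the y axis; red points are the 8 genes. Polk, Rev1 and Rev3l lie in the lower right, Polh, Polq, Rad18 and Usp1 in the lower left, and Poli in the upper left; both axes share the etoposide value, and 213 genes lie outside the limits drawn.

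Of 12 other genes of PCNA ubiquitination and lesion bypass, 2 were past 1.5-fold higher with LE and 1 lower, and with KU55933 under etoposide 0 passed in either direction. As for the lists that follow, these counts stand beside 37.6% of all genes past 1.5-fold for LE against LPS (24.1% higher, 13.5% lower) and 18.9% for LEKU against LE (6.85% higher, 12.1% lower). Their median log2 ratios were −0.0057 and 0.020. Poln, which encodes a further A family polymerase, went from 51.2 to 214 scaled counts (2.04) and stayed at 227 with KU55933, where Polk was lower. Sprtn, a protease for DNA-protein crosslinks, went from 626 to 1028 (0.71). Pcna itself went from 8593 to 7484 and 5443. The ubiquitin conjugases Ube2a and Ube2b, partners of Rad18, had log2 ratios of −0.022 and 0.010 with LE, and Wdr48, the activating partner of Usp1, 0.10. Primpol, which restarts synthesis beyond a lesion, had 736, 757 and 1043 scaled counts. In the 6 genes of template switching, the error-free alternative to lesion bypass, 0 passed with LE and 0 with KU55933 under etoposide, with median log2 ratios of −0.16 and −0.15.

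Of 7 subunit genes of the replicative DNA polymerases, 3 were past 1.5-fold lower with LE and 1 higher, the primase Prim1 (0.71). Pola1, the catalytic subunit of polymerase alpha, went from 2836 to 1275 scaled counts (−1.15) and Pold1, that of polymerase delta, from 4019 to 1697 (−1.24). Of 3 listed X family polymerases, Poll (0.87) and Polb (0.65), which fill short gaps, were past the threshold upward, and Polm was at −0.41. With KU55933 under etoposide, 1 of the 7 replicative genes was past it lower and 0 of the 3 X family genes passed.

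In somatic hypermutation, polymerase eta and Rev1 act together with mismatch and uracil repair. Msh6, of the mismatch sensor that directs polymerase eta to A and T bases, went from 4037 scaled counts with LPS to 9741 with LE (log2 ratio 1.27) and 6257 with LEKU (−0.64 against LE), the same directions as Polk and Rev1. Ung, the uracil glycosylase, went from 796 to 408 scaled counts with LE (log2 ratio −0.96).

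Genes of the cell cycle are given beside these results. Of 9 genes of G2 and mitosis, 6 were past 1.5-fold lower with LE and 4 with KU55933 under etoposide, with medians of −1.35 and −0.58. Plk1 (−2.78), Ccnb1 (−1.80), Aurka (−1.77) and Cdk1 (−1.49) fell most with LE. Of 9 S phase genes, 2 were past the threshold higher with LE and 2 lower, and 2 were lower with KU55933 under etoposide, with medians of −0.38 and −0.44. The S phase counts with LE are near the share of all genes. For LEKU against LPS the medians were −1.93 for the list of G2 and mitosis and −0.71 for that of S phase, and the 2 members past the threshold lower in that comparison were Polh and Usp1. The part of cell cycle position in the levels of the members was not tested. Of the B cell markers, 3 of 6 were past the threshold lower with LE and 0 higher.

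The genes with the most similar pattern were found by the distance between the pairs of log2 ratios (LE against LPS and LEKU against LE) among 10867 genes with a mean of at least 100 scaled counts, from 3 conditions. For Polk these were Cd80 (distance 0.051), Rnf169 (0.072) and Gm9791 (0.092), and 5 genes in all lay within 0.1. For Rev1 they were Ttc14, Ift27 and Hdac2 (0.038 to 0.048), with 19 genes within 0.1. For Rev3l they were Mrps24, Uevld and Tnks2 (0.0040 to 0.014), with 78 genes within 0.1.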

How the data were processed

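The authors trimmed the reads (Trim Galore, cutadapt 1.2.1), mapped them with TopHat2 2.0.12 to GRCm38, counted them with HTSeq on Ensembl genes and fitted them with DESeq2 1.6.3, per the labels and the methods. The deposited table of normalized counts holds, per gene and library, a signal made of 1 fitted value for the condition multiplied by a library factor. DESeq2 of this version moderates fold changes toward 0 by default, and whether the deposited means carry this was not tested. The other 3 deposited files hold the authors' own comparisons (mean, log2 fold change, standard error, score, p and adjusted p) and were not used. The planned limma test needs replicate values and could not be run.

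Column factors were the median ratio over genes with a mean of at least 100. Ratios are of log2(scaled count + 1). The functions were tested on simulated data without noise, with few genes changed and as many higher as lower. That could not check the choice of scaling, as here many genes changed and unequally in the 2 directions. Python 3.11.15, numpy 2.4.6, pandas 2.3.3 and matplotlib 3.10.9 were used. The promoter motifs were chosen after the values of the genes were seen. The genes, lists and tests were chosen with earlier results of these data known. Named besides the 8 genes are listed genes past 2-fold (at most 4 a list), genes of nearest pattern, and other listed genes chosen after their values were seen. Exonic length was known for 99.5% of the genes kept. Counting-error values cover counting error only. A result on 1 listed gene is not reported here.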

Additional observations from a re-analysis of the deposited data

How the results depend on the processing

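No paired analysis was possible because the columns of a condition hold 1 fitted mean and no value per replicate, and for the same reason leaving out any 1 library moved no log2 ratio of the 8 genes by more than 0.0050, which says nothing about stability. Another pseudocount moved them by at most 0.0069. Of 120 ratios of the 8 genes recomputed under the 5 other normalizations, 12 changed side of the 1.5-fold threshold, and 6 ratios under the threshold changed sign (of Poli, Polq and Rev1). With TMM factors, LE against LPS became −0.59 for Polh and −0.69 for Usp1, now past it, and 0.45 for Rev3l, no longer past it, and LEKU against LPS became −0.64 for Polq, now past it. With the median ratio over all genes above 0 the same 4 values were −0.62, −0.73, 0.42 and −0.67. Usp1 in LEKU against LPS was −0.55 with column totals, −0.49 with the columns as deposited and −0.43 after quantile normalization, each no longer past it. With the columns as deposited, Polh in LEKU against LE was −0.61, past it. The median of all genes for LE against LPS ran from −0.10 to 0.32 over the scalings. Of all genes, those lower with LE numbered 1151 with the columns as deposited and 3325 after quantile normalization, against 2111. With a minimum of 50 counts, 2453 were higher with LE, against 3761, and 1213 lower in LEKU against LE, against 1884. At 2-fold, 3156 genes differed for LE against LPS (2396 higher, 760 lower), 1002 for LEKU against LE (264 and 738) and 2706 for LEKU against LPS (1920 and 786), as the stricter threshold must lower them. The share of the etoposide change kept with KU55933 moved with the scaling for Rev1 and Rev3l. The cause of the other moves was not tested.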
